A study of Mus musculus with 100 samples.

Results

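Retinoic acid, a small signalling molecule made from vitamin A, was followed through the 10 genes that make it, bind it, break it down and sense it. They are the retinaldehyde dehydrogenases Aldh1a1, Aldh1a2 and Aldh1a3, the cellular retinoic acid binding proteins Crabp1 and Crabp2, the degrading enzymes Cyp26a1 and Cyp26b1, and the nuclear receptors Rara, Rarb and Rarg. The genes were taken by name, and all 10 have a row among the 23109 gene entries of the 37 RNA-sequencing libraries. Levels are given as CPM, a gene's reads scaled to a fixed total of reads assigned to all genes of that library.

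The study concerns mouse MLL3 and MLL4, a pair of histone H3 lysine 4 methyltransferases that act at enhancers. The libraries analysed form 18 groups: 3 single libraries, 11 pairs and 4 groups of 3. A neural day 8 RNA sample of genotype Mll3-/-;Mll4-/- is not analysed here. All cultured cells descend from embryonic stem cells (ESCs) that lack MLL3 (Mll3-/-). Reference cells, called flox here, are Mll3-/-;Mll4flox/flox, and KI cells are Mll3-/-;Mll4KI/KI, from 2 clones numbered 27 and 48. KI is the labels' name for the altered allele and is kept as written. ESCs were kept in 2i and LIF, with a B-27 supplement that lacks vitamin A. Embryoid bodies (EBs) are free-floating aggregates grown without LIF in serum, sampled at day 4 and day 10. ESCs and each EB day have 1 flox library and 2 KI libraries, 1 from each clone. Neural cultures were grown as EBs and received 5 µM retinoic acid from day 4 to day 8, the sampling day of the neural progenitors. They were then dissociated and plated in N-2 and later B-27 medium, for which the protocol lists no retinoic acid, and neurons were sampled at day 16. Extraembryonic endoderm cultures had 0.1 µM retinoic acid and activin A for all 5 days. Trophectoderm cultures were driven by a doxycycline-inducible, T7-tagged CDX2 for 6 days, with FGF4 and heparin and no listed retinoic acid. Neural days 8 and 16, endoderm and trophectoderm have 2 flox libraries and 1 of each KI clone. Whole embryos were taken at E8.5 and E9.5, 3 libraries a group. KI embryos are Mll3flox/KI;Mll4flox/KI;Sox2-Cre and controls are Mll3flox/KI;Mll4flox/+;Sox2-Cre. Both embryo groups thus carry Sox2-Cre, a recombinase driver active in the epiblast, from which the embryo proper forms. The labels do not say whether a library holds 1 embryo or several, or whether the 2 flox libraries of a culture came from separate cultures, so p-values measure only the spread between these libraries.

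Retinaldehyde dehydrogenases carry out the last, irreversible step of retinoic acid synthesis. CRABP proteins hold retinoic acid in the cytoplasm, and CRABP2 can pass it to receptors in the nucleus. The receptors RARA, RARB and RARG bind DNA with an RXR partner at direct repeats of a short half-site and switch neighbouring genes on when retinoic acid is bound. Cyp26a1 and Rarb are textbook examples of genes that retinoic acid itself switches on through such repeats. In the embryo, Aldh1a2 supplies the trunk from the somites and lateral mesoderm, while CYP26 enzymes keep the tail bud, hindbrain and limb bud tip low in retinoic acid.

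Those repeats are shown first, because retinoic acid is known to act through them at Cyp26a1 and Rarb. RefSeq promoter windows of build GRCm38.p6, 300 bases long (250 before the transcription start and 50 after), were searched on both strands. The search looked for the half-site AGGTCA, the variant half-site AGTTCA, the variant half-site GGGTCA or the variant half-site GGTTCA, repeated in the same direction with a spacer of 5, 2 or 1 bases. Of 32851 windows, 32 (0.0974%) held a repeat with a spacer of 5, 88 (0.268%) one with a spacer of 2 and 73 (0.222%) one with a spacer of 1. Windows were found for 8 of the 10 genes, Aldh1a3 and Crabp2 being those without one. Among these 8, Rarb and Cyp26a1 held a repeat with a spacer of 5, and none held one with a spacer of 2 or 1. The 250 bases before each start are printed 5′ to 3′ on the gene's strand, with the repeat and its spacer in capitals. The Rarb stretch is chr14:16575477-16575726 on the minus strand, and its repeat lies 53 to 37 bases before the start. The Cyp26a1 stretch is chr19:37697558-37697807 on the plus strand. Its repeat lies 32 to 16 bases before the start and runs on the opposite strand, where it reads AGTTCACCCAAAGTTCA.
Rarb: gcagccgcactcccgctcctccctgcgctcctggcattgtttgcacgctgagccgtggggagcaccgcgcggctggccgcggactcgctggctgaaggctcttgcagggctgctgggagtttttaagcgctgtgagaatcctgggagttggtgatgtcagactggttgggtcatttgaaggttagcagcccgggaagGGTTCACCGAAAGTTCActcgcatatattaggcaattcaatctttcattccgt
Cyp26a1: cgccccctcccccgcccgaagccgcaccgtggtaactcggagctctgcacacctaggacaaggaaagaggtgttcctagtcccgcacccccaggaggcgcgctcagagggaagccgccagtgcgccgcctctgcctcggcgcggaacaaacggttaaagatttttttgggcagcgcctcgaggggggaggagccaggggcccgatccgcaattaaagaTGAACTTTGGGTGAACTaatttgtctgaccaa
A match describes these letters in this window and is not evidence of binding. Windows with the spacer of 5 belong to 31 genes, 11 of which were expressed well enough to test in KI neural progenitors against KI EBs at day 4. Of these 11, Rarb, Cyp26a1, Tnfsf13b and Syndig1 were called higher and Blvrb lower, where 37.3% and 31.0% of all genes were called higher and lower. In flox cells Rarb, Hbb-y, Tnfsf13b and Syndig1 were called higher and Blvrb and Prokr2 lower (33.2% and 26.7% of all genes), and Cyp26a1 was not called. The flox EBs of that comparison are 1 library, assumed to vary like the other groups. Between KI and flox progenitors Syndig1 and Rarb of 9 tested were called higher and Cyp26a1, Hbb-y and Tnfsf13b lower (6.3% and 13.2% of all genes).

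Gene-level reads numbered 18.9 M to 59.9 M a library, so a gene without reads can have had up to 0.16 CPM where sequencing was shallowest and 0.05 CPM where it was deepest (3 reads, counting error only). Differences between groups were tested with edgeR's quasi-likelihood test with Benjamini-Hochberg adjustment over all genes tested, and a gene is called at an adjusted p under 0.05. Log2 fold changes come from that fit and are followed by their standard error (SE). The targeted genes check no label here, since gene-level reads do not resolve an altered or partly deleted allele: Kmt2c (MLL3) had 27.6 to 99.4 CPM in flox and 32.0 to 89.2 CPM in KI cultures, and Kmt2d (MLL4) 149 to 313 and 149 to 334 CPM. Some marker lists were high where the labels place them: the summed level of 6 neural progenitor markers was 1110 to 1204 CPM at neural day 8, and that of 7 pluripotency markers was 4662 to 6091 CPM in ESCs. Others were not specific: 9 trophoblast markers summed to 3195 to 5093 CPM in endoderm and 3380 to 3461 CPM in flox and 5877 to 6078 CPM in KI trophectoderm. In KI extraembryonic endoderm the endoderm sum (2556 to 2742 CPM) was below that of KI EBs at day 10 (4465 to 4470 CPM), all 13 endoderm markers were called lower than in flox endoderm, and Apoa1 and Ttr had no read in either clone. The 2 flox libraries of neural day 8 differed by little more than sampling noise (chi-square per degree of freedom 1.5, against 2.76 to 54.83 in all other pairs of a group).

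Addition of retinoic acid to the medium was set against its absence over the 21 cultures sampled either during treatment (8 libraries of neural day 8 and extraembryonic endoderm) or without it (13 libraries of ESCs, EBs and trophectoderm). Cyp26b1, which clears retinoic acid in the hindbrain, limb and gonad, was the 1 gene of the 10 whose levels did not overlap. It had 32.2 to 1094 CPM in the 8 libraries with retinoic acid, median 99, and 0.042 to 3.18 CPM in the 13 without, median 1.03. Of the 14842 genes with a mean of at least 1 CPM over all cultures, 0.883% lay above in this way and 0.33% below. Rarb was close to it, with 35 to 355 CPM against 0.0529 to 55.7 CPM. Its overlap came from the flox EB library of day 10, whose 55.7 CPM exceeded the 35 to 53.4 CPM of extraembryonic endoderm. Cyp26a1, the other main degrading enzyme, had 60.9 to 297 CPM with retinoic acid and a median of 10.5 CPM without, yet EBs at day 4 reached 231 CPM in the flox library without any addition. Rara, Crabp1 and Crabp2 each exceeded every untreated library in the 4 neural libraries but not in extraembryonic endoderm.

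**Figure D1:**
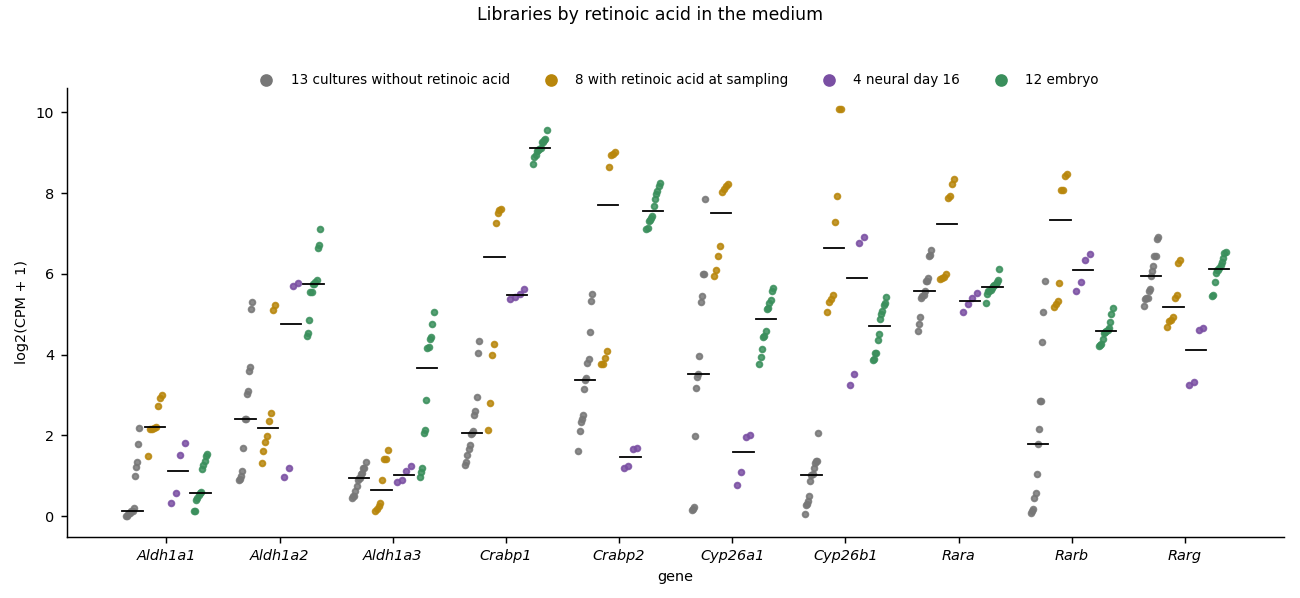
Levels of the 10 genes as log2(CPM + 1) on the vertical axis, with each point a library, in 4 classes: cultures with retinoic acid in the medium at sampling, cultures without it, neurons sampled after its removal, and embryos. Short bars mark medians. Cyp26b1 is the gene for which the 8 libraries with retinoic acid (32.2 to 1094 CPM) lie above all 13 without it (at most 3.18 CPM).

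The comparison cannot be read as retinoic acid alone, because lineage and medium differ between the same cultures and cannot be told apart from it. The label of the RNA fraction differs within both arms, so levels were also compared within each label. Within libraries labelled polyA RNA, the 4 neural day 8 libraries lay above all 9 ESC and EB libraries for Cyp26b1, Rara, Rarb, Crabp1 and Crabp2 and below all 9 for Aldh1a3 and Rarg. There 21.4% of all genes lay above and 9.48% below. Within libraries labelled total RNA, the 4 endoderm libraries lay above all 4 trophectoderm libraries for Aldh1a1, Cyp26a1, Cyp26b1, Rara and Rarb, where 22.2% of all genes lay above and 27.5% below. Cyp26b1, Rarb and Rara stood above in both settings, but the share of all genes that did so in both is not given, so this overlap is only a description. The doses, 5 µM and 0.1 µM, and the times of exposure were not matched, so the sizes are not compared.

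Neural progenitors at day 8 held the highest level of the whole series for 5 of the 10 genes: Crabp2, Cyp26a1, Cyp26b1, Rara and Rarb. The share of all genes with their highest level there is not given. Against KI EBs at day 4, the stage at which retinoic acid was added, all 10 genes were called in KI cells, where 68.3% of all genes were called. Rarb went from 0.365 and 0.498 CPM to 345 and 355 CPM (log2 fold change 9.63, on 8 and 11 reads in the EBs), and Cyp26b1 from 0.411 and 0.226 to 242 and 154 CPM (9.24). Crabp1 rose by 6.37, Crabp2 by 5.09, Rara by 2.78, Aldh1a2 by 1.54 and Cyp26a1 by 0.58 on the log2 scale. Rarg fell by 1.69 and Aldh1a3 by 1.45, and Aldh1a1, called higher, came from 1 and 2 reads in the EBs to 1.79 and 3.5 CPM. The Aldh1a3 value ran from -2.18 without neural clone 27 to -0.94 without neural clone 48, and its call was lost without clone 48 of either culture (adjusted p up to 0.105). In flox cells 8 of the 10 were called, with 59.9% of all genes called. The flox EB arm is 1 library, assumed to vary like the libraries of the other groups in the fit. Cyp26b1 rose by 9.97, Rarb by 7.96, Crabp2 by 5.67, Crabp1 by 3.63 and Rara by 3.00, while Rarg fell by 1.13 and Aldh1a3 by 2.51, and Aldh1a1 was called higher from 1 read in the EB library. The 2 without a call were Aldh1a2 (0.04) and Cyp26a1 (0.34), both of which were already high in the single flox EB library at day 4.

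EBs that went on to day 10 without added retinoic acid are the other reference for the same neural libraries. In KI cells 9 of the 10 genes were called, with 71.8% of all genes called, and in flox cells 9 were called, with 58.3%. Here too the flox EB arm is 1 library and the spread comes from the other groups. Cyp26b1 rose by 7.45 in KI and 8.41 in flox cells, Crabp2 by 6.94 and 4.46, Crabp1 by 6.05 and 3.32, Rarb by 3.84 and 2.27, Rara by 2.57 and 2.01, and Cyp26a1 by 1.30 and 4.31. Aldh1a3 fell by 2.92 and 2.74 and Rarg by 0.62 and 0.80, and the KI value of Aldh1a3 ran from -3.65 to -2.41 over the alternatives. Aldh1a2 fell by 1.34 in KI cells, and Aldh1a1 rose by 1.41 in flox cells, a call lost under DESeq2 and without either neural day 8 flox library (adjusted p up to 0.0911). Even without added retinoic acid, KI EBs changed between day 4 and day 10 in 8 of the 10 genes (70.6% of all genes were called, a similar share). Rarb rose by 5.78, Aldh1a2 by 2.88, Cyp26b1 by 1.81 and Aldh1a3 by 1.46, Crabp2 fell by 1.84, Rarg by 1.07 and Cyp26a1 by 0.72, and Aldh1a1 went from 1 and 2 reads to 2.45 and 3.58 CPM. The Cyp26b1 call was lost in 5 alternatives (adjusted p up to 0.22) and that of Aldh1a3 under DESeq2 and without EB day 4 clone 27 (up to 0.0915).

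The earlier step from ESCs to KI EBs at day 4 called 6 of the 10 genes (47.5% of all genes), and 7 with the KI clone as a block, which added Rarb (log2 fold change 1.88, adjusted p = 0.0245 in edgeR). Cyp26a1 went from 0.127 and 0.168 CPM in ESCs to 62.6 and 63.3 CPM; the ESC levels rest on 3 and 4 reads, so no fold is given. Crabp2 rose by 1.58 and Rarg by 1.05, and Rara fell by 1.1, Aldh1a3 by 1.29 and Crabp1 by 1.45. The Aldh1a3 call was lost under DESeq2 and without any 1 of the 4 libraries (adjusted p up to 0.185), and that of Crabp1 without either EB clone or ESC clone 48 (up to 0.15). Cyp26a1 thus stood at 62.6 CPM or more in EBs before any retinoic acid was added.

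**Figure D2:**
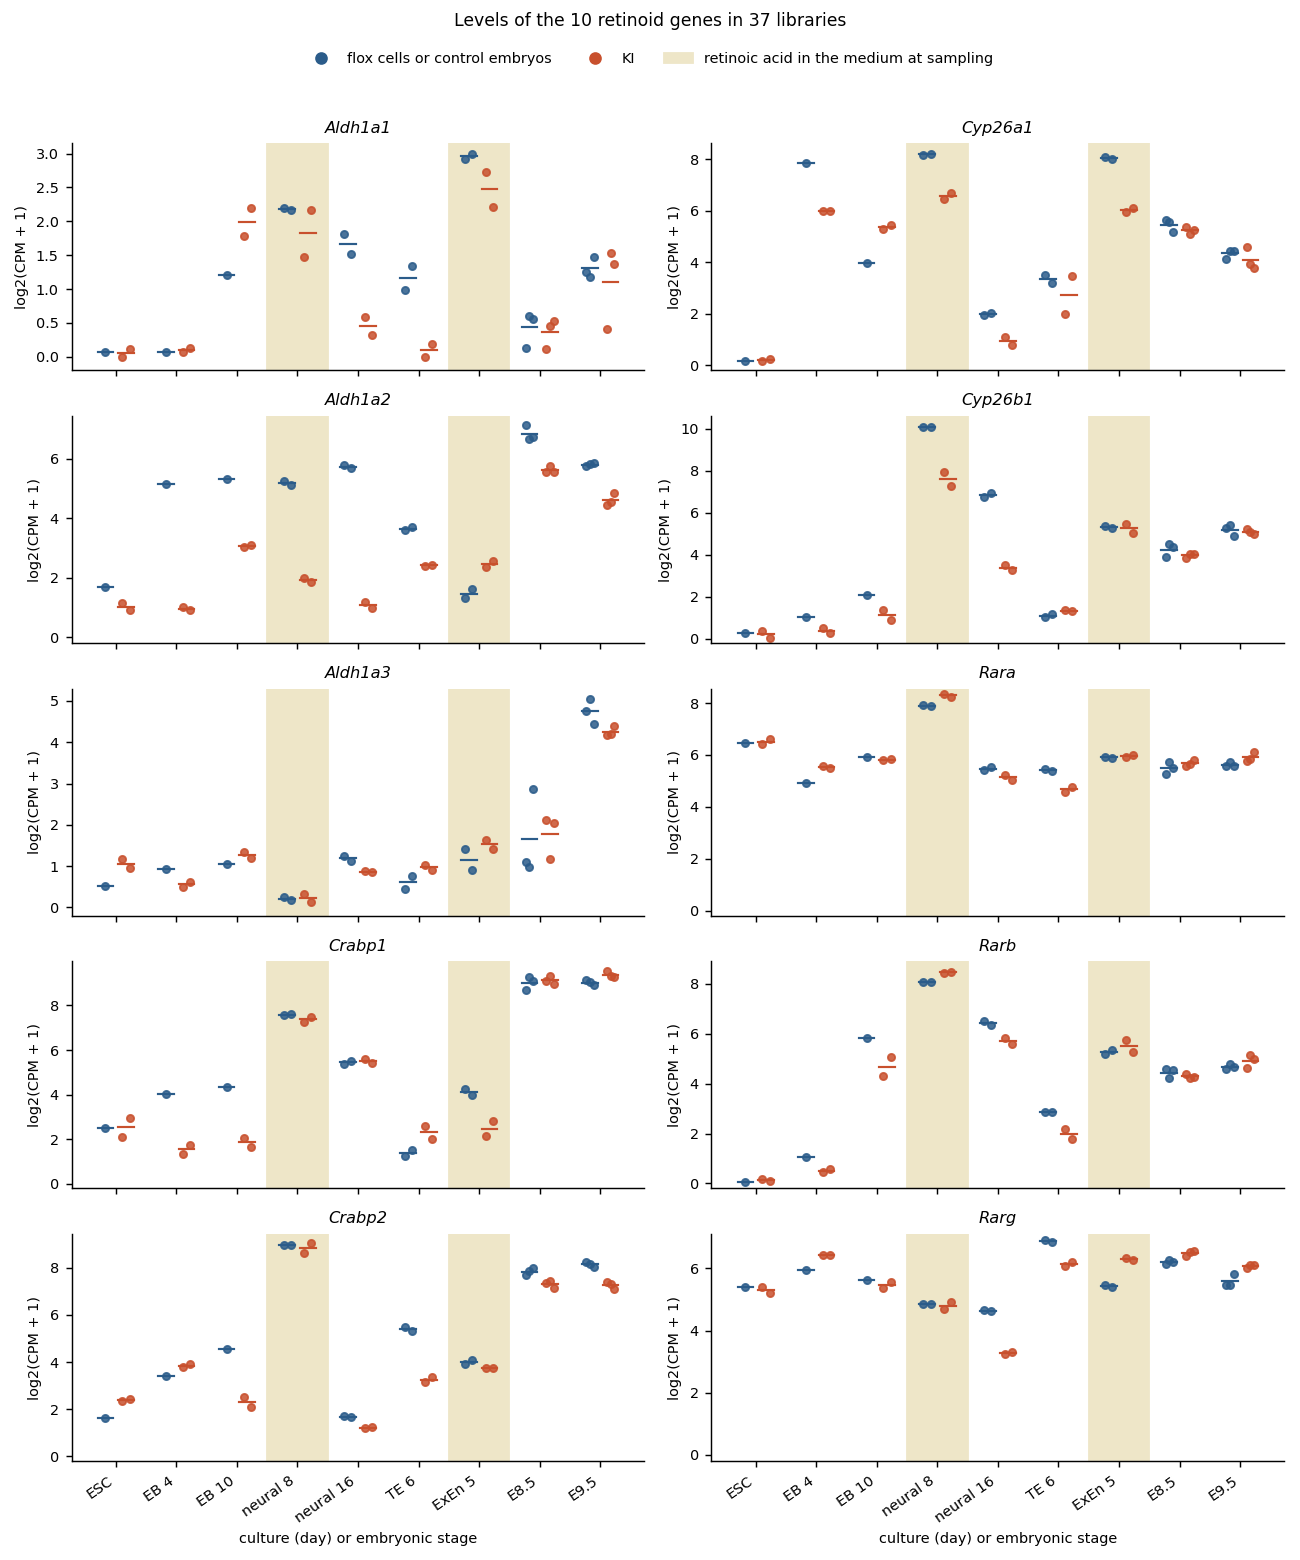
Level of each gene in every library as log2(CPM + 1) on the vertical axis, with groups in the order ESC, EB day 4 and 10, neural day 8 and 16, trophectoderm, extraembryonic endoderm and embryos, and short bars at the mean of the log2 values. Shading marks groups with retinoic acid in the medium at sampling. Cyp26b1 and Rarb peak at neural day 8, Crabp1 and Aldh1a3 peak in embryos, and Rarg peaks in flox trophectoderm.

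After retinoic acid was withdrawn and neurons formed, 6 of the 10 genes were called lower in flox and 9 in KI cells. Between day 8 and day 16 the flox neural cultures called 8 of the 10 genes (77.1% of all genes, a similar share) and the KI cultures all 10 (79.9%). The share of all genes called lower is not given. The median log2 fold change of the 10 was -1.89 in flox and -2.61 in KI cells, against -0.02 and 0.01 over all genes. Crabp2 had 495 and 498 CPM in flox progenitors and 2.25 and 2.18 CPM in flox neurons, and 398 and 522 CPM in KI progenitors against 1.28 and 1.37 CPM in KI neurons. Its log2 fold change was -7.77 (SE 0.17) in flox and -8.23 in KI cells, the largest fall of the 10 in either genotype. Cyp26a1 fell by 6.60 and 6.48, Cyp26b1 by 3.22 and 4.18, Rara by 2.42 and 2.99, Rarb by 1.64 and 2.57, and Crabp1 by 2.13 and 1.68 in flox and KI cells. Aldh1a3 rose by 3.03 and 2.43, from levels under 0.26 CPM at day 8, and its KI value ran from 1.91 to 3.18 over the alternatives. Aldh1a2 rose by 0.60 in flox cells and fell by 1.11 in KI cells. Aldh1a1 fell by 2.64 and Rarg by 1.42 in KI cells, and their log2 fold changes of -0.65 and -0.19 in flox cells did not pass the test. In KI neural libraries of day 16 the CPM ratio of a typical gene, against day 8 or against flox, had a log2 value 0.2 lower than its scaled fold change (a median difference of -0.2), and no called gene of the 10 differed in sign between these scales.

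Extraembryonic endoderm and trophectoderm came from ESCs of the same genotypes, those for trophectoderm with the CDX2 transgene added, and both carry the label of total RNA. In flox cells all 10 genes were called between these cultures, with 64.7% of all genes called. Cyp26b1 had 40.9 and 38.3 CPM in endoderm and 1.03 and 1.27 CPM in trophectoderm (log2 fold change 5.19), and Cyp26a1 276 and 260 against 10.5 and 8.06 CPM (4.95). Crabp1 was higher by 3.42, Rarb by 2.68, Aldh1a1 by 2.51, Aldh1a3 by 1.32 and Rara by 0.58. The Aldh1a3 call was lost under DESeq2, without the filter on low counts, with summed transcripts, with a replicate block and without flox library 1 of either culture (adjusted p up to 0.37). Aldh1a2 was lower by 2.61 and Crabp2 and Rarg each by 1.38 in endoderm. In KI cells 7 were called, with 63.1% of all genes called: Cyp26b1 (4.64), Rarb (3.95), Cyp26a1 (3.35), Rara (1.34), Crabp2 (0.59) and Rarg (0.20) besides Aldh1a1, which had 0 and 0.15 CPM in KI trophectoderm. The Cyp26a1 value was 2.74 without trophectoderm clone 27 and 4.47 without clone 48. The Rarg call in KI cells was lost without clone 27 of either culture (adjusted p up to 0.0961). The tests of the KI effect between these cultures follow with each gene.

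Across KI and reference groups, the number of the 10 genes called was 5 at neural day 8 (19.5% of all genes called), 7 at neural day 16 (46.9%), 7 in trophectoderm (50.9%), 4 in extraembryonic endoderm (35.5%), 2 at E8.5 (5.46%) and 3 at E9.5 (29.5%). In endoderm and at E9.5 the share of the 10 was near that of all genes. The median log2 fold change of the 10 was -0.13 at neural day 8, -0.89 at neural day 16, -0.73 in trophectoderm, -0.03 in endoderm, -0.19 at E8.5 and -0.16 at E9.5, where the median of all genes tested lay between -0.01 and 0.09. Calls of at least 2-fold were 3 at neural day 8 (8.09% of all genes), 1 at E8.5 (1.39%) and 1 at E9.5 (5.96%). The KI effect itself differed between neural day 16 and day 8 for 7 of the 10 (33.2% of all genes), 3 of them at least 2-fold (13.3%), and between endoderm and trophectoderm for 7 (35.3%). The genes are taken by role below. In whole cultures and embryos, fewer cells of a type and less RNA per cell cannot be told apart.

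**Figure D3:**
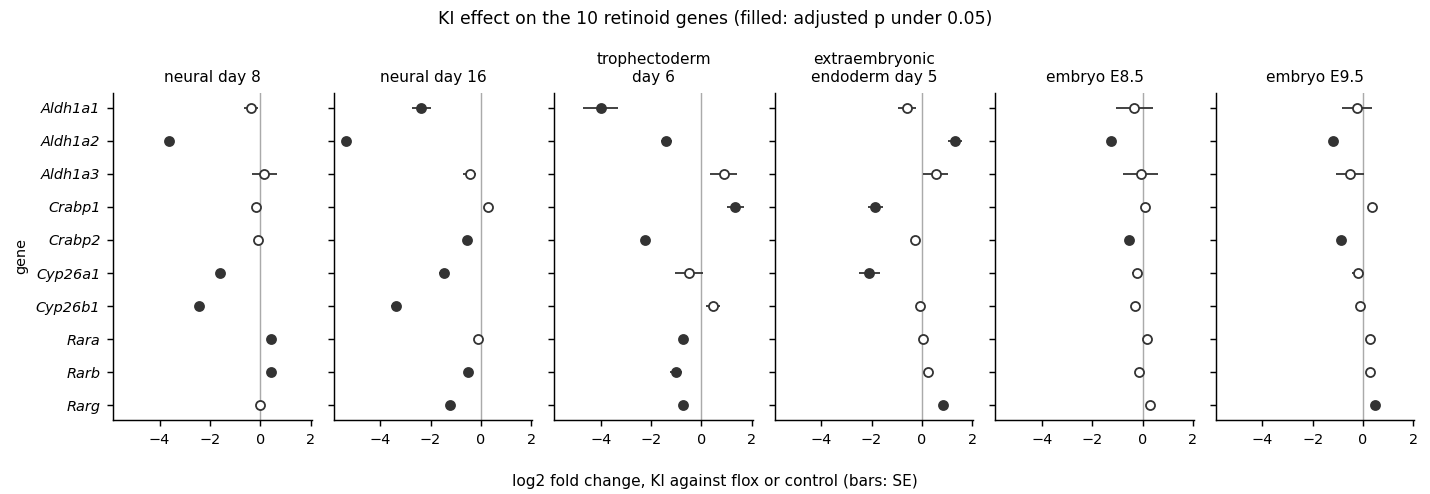
Log2 fold change of KI against flox or control (points, with bars of 1 SE) for the 10 genes in 6 comparisons, with filled points at an adjusted p under 0.05 in edgeR's quasi-likelihood test. Aldh1a2 is lower in 5 comparisons, with log2 fold changes from -1.21 to -5.35, and higher by 1.31 in extraembryonic endoderm.

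Aldh1a2, the main retinoic acid-making enzyme of the early embryo, was the gene of the 10 that was called in all 6 comparisons. At neural day 8 it had 36.8 and 33.7 CPM in the flox libraries and 2.94 and 2.58 CPM in the KI clones, or 35.3 ± 2.16 against 2.76 ± 0.255 CPM (SD, n = 2 each), a 12.8-fold lower mean. The log2 fold change was -3.64 (SE 0.13, adjusted p = 3.3e-08 in edgeR), and the groups lay far apart. By neural day 16 the flox libraries had 53.7 and 50.6 CPM and the KI clones 1.28 and 0.952 CPM, a 46.8-fold lower mean (log2 fold change -5.35, SE 0.14, adjusted p = 7.91e-10 in edgeR). The KI effect was larger at day 16 than at day 8, by 1.71 on the log2 scale (SE 0.20, adjusted p = 5.9e-05 in edgeR). Aldh1a2 marks mesothelium and mesenchyme in many tissues, and markers of both moved with it in these neural cultures, but not in every setting given below. At day 16 the sum of 6 mesothelial markers was 106 to 108 CPM in flox and 6.03 to 9.38 CPM in KI libraries, and all 6 were called lower. The sum of 6 mesenchymal markers was 3584 to 3852 against 845 to 1035 CPM, again with all 6 called lower, while 8 of 8 neuronal markers were called higher. Endoderm markers summed to 401 to 423 against 147 to 211 CPM, with 6 of 12 called lower and 1 higher. Trophoblast markers summed to 15.8 to 19.8 against 3.61 to 4.22 CPM, with 4 of 7 called lower. At day 8, 4 of 6 mesothelial and 5 of 6 mesenchymal markers were called lower, and so were 7 of 8 neuronal markers (1577 to 1599 CPM in flox, 1014 to 1184 CPM in KI libraries) and 8 of 12 endoderm markers. The part of these marker lists in the neural differences of Aldh1a2, Cyp26a1, Cyp26b1 or any other of the 10 genes was not tested.

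In embryos Aldh1a2 was lower in every KI library. At E8.5 the control libraries had 138, 99.7 and 105 CPM and the KI libraries 46.2, 52.7 and 45.8 CPM, or 114 ± 21.0 against 48.2 ± 3.86 CPM (SD, n = 3 each). The log2 fold change was -1.24 (SE 0.11, adjusted p = 9.2e-06 in edgeR). At E9.5 the controls had 52.7, 55.0 and 56.8 CPM and the KI libraries 20.9, 22.4 and 28.0 CPM, a log2 fold change of -1.21 (SE 0.12, adjusted p = 1.79e-06 in edgeR). Means thus stood 2.37-fold and 2.31-fold lower at the earlier and later stage, and the test of the difference between stages called none of the 10 genes (6.63% of all genes were called). Without adjustment 2 of the 10 passed p of 0.05 in that test, Rarb and Crabp2, and DESeq2 called 0. Blood and somite markers were low alongside. The sum of 5 blood markers was 661 to 1251 CPM in controls and 104 to 187 CPM in KI libraries at E8.5, with none called in edgeR, and 2186 to 6125 against 434 to 2113 CPM at E9.5, with 1 called lower. The somite sum was 125 to 167 CPM in controls and 67.1 to 68.7 CPM in KI libraries at E8.5, with 4 of 6 called lower, and 154 to 184 against 46.6 to 66.0 CPM at E9.5, with all 6 called lower. At E9.5 further lists moved in KI embryos: 5 of 6 neural progenitor and 6 of 8 neuronal markers were called lower, and all 6 heart and 5 of 9 trophoblast markers higher. Mesothelial and mesenchymal sums did not fall with Aldh1a2 there. The mesothelial sum was 40.1 to 66.5 CPM in E9.5 controls and 82.2 to 102 CPM in KI libraries. The mesenchymal sum was 1021 to 1634 and 1647 to 2306 CPM, and at E8.5 both sums overlapped. Somites express Aldh1a2, and the part of these markers in the E9.5 differences of Aldh1a2, Crabp2 and Rarg, or of blood and somite markers at E8.5, was not tested.

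Extraembryonic lineages split. In trophectoderm Aldh1a2 fell from 11 and 12 CPM in flox to 4.29 and 4.32 CPM in KI cells (log2 fold change -1.39, SE 0.22, adjusted p = 0.000104 in edgeR). In extraembryonic endoderm it had 1.50 and 2.04 CPM in flox and 4.13 and 4.85 CPM in KI cells, a rise of 1.31 (SE 0.26, adjusted p = 0.00122 in edgeR). The difference of the KI effect between these lineages was 2.70 (SE 0.34, adjusted p = 2.98e-05 in edgeR). Marker makeup differed in both lineages: in trophectoderm 7 of 9 trophoblast markers were called higher in KI cells and 6 of 7 pluripotency markers lower, and in endoderm all 13 endoderm markers were called lower (median log2 fold change -3.44). Mesenchymal and mesothelial sums were lower in KI cells of both lineages. In endoderm they were 336 to 511 against 1950 to 2035 CPM and 373 to 431 against 459 to 471 CPM. In trophectoderm they were 78.1 to 129 against 302 to 307 CPM and 305 to 315 against 348 to 350 CPM. The part of these markers in the KI effects on Aldh1a2, Crabp1 and Rarg in these lineages was not tested.

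Along the EB course Aldh1a2 was also low in KI cells, although only 1 flox library stands at each day. It had 2.22 CPM in flox ESCs and 1.19 and 0.883 CPM in the KI clones. At day 4 the flox library had 34.1 CPM and the clones 1.01 and 0.86 CPM, a 36.6-fold difference of means, and at day 10 the values were 38.8 against 7.11 and 7.54 CPM. Single days were not tested. Averaged over the 3 days, the log2 fold change of -3.12 had an adjusted p of 0.0745 in edgeR, in which none of the 10 genes was called (0.73% of all genes were called), against 4 at an unadjusted p under 0.05 and 2 with DESeq2, Aldh1a2 (adjusted p = 7.59e-06) and Crabp1 (0.00369). Marker lists differed between flox and KI EBs too, and their part in these differences was not tested. At day 4 the sums were 309 CPM in flox and 137 to 150 CPM in KI libraries for mesothelium, 82.6 and 21.0 to 22.1 CPM for heart, 60.3 and 18.1 to 22.2 CPM for somite, 611 and 214 to 276 CPM for endoderm and 2259 and 826 to 893 CPM for trophoblast. At day 10 they were 2326 and 226 to 333 CPM for heart, 522 and 144 to 171 CPM for mesothelium and 1939 and 4465 to 4470 CPM for endoderm. Mesenchymal sums were 125 CPM in flox and 77.0 to 96.4 CPM in KI libraries at day 4. At day 10 the flox sum of 12001 CPM lay between those of the KI clones, 6161 to 15058 CPM.

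Aldh1a1, which takes over from Aldh1a2 in dorsal eye and some adult tissues, was expressed far below it in most groups. Its highest levels were in extraembryonic endoderm, at 6.59 and 7.0 CPM in flox and 5.63 and 3.64 CPM in KI cells, which were not called different (log2 fold change -0.58). At neural day 8 it had 3.57 and 3.5 CPM in flox and 1.79 and 3.5 CPM in KI cells, not called. At neural day 16 the flox libraries had 2.53 and 1.85 CPM and the KI clones 0.50 and 0.25 CPM, or 27 and 15 reads (log2 fold change -2.37, SE 0.38, adjusted p = 0.00035 in edgeR). In trophectoderm 0.99 and 1.54 CPM stood against 0 and 0.15 CPM in the KI clones, a call that rests on 0 and 4 reads in KI cells. In E8.5 embryos no library exceeded 0.52 CPM, and at E9.5 the levels were 1.26 to 1.79 CPM in controls and 0.33 to 1.89 CPM in KI libraries, which overlap.

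Aldh1a3, the enzyme of the ventral eye and nasal region, was highest in E9.5 embryos. Controls had 25.9, 32.1 and 20.8 CPM at E9.5 and KI embryos 17.1, 17.4 and 20.0 CPM. The groups do not overlap, yet the log2 fold change of -0.53 had an SE of 0.55 and an adjusted p of 0.517 in edgeR with all embryos in the fit. With E9.5 libraries alone the adjusted p was 0.0144. At E8.5 one control library had 6.29 CPM beside 1.14 and 0.968 CPM in the others, and KI libraries had 3.36, 1.27 and 3.16 CPM. No culture exceeded 2.11 CPM. Aldh1a3 was not called in any of the 6 KI comparisons.

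Among the binding proteins, Crabp1 was the most abundant of the 10 genes per length in embryos, at 688 to 881 CPM per kilobase of transcript as group means, followed by Crabp2 at 166 to 308. At neural day 8 the order was reversed, with 538 CPM per kilobase for Crabp2 and 252 for Crabp1 in flox cells. Cyp26b1 (225), Cyp26a1 (161), Rarb (94.7), Rara (72.9), Aldh1a2 (15.2) and Rarg (9.30) followed on this scale. In KI cells Crabp2 (498) and Crabp1 (218) were followed by Rarb (123), Rara (96.4), Cyp26a1 (52.0) and Cyp26b1 (41.1), so that both receptors stood above both degrading enzymes.

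Crabp2 was called in 4 of the 6 KI comparisons and was lower in all 4. In trophectoderm it had 44.4 and 39.1 CPM in flox and 7.85 and 9.29 CPM in KI cells, a 4.87-fold lower mean (log2 fold change -2.25, SE 0.14, adjusted p = 1.18e-08 in edgeR). Endoderm had 14.0 and 16.1 CPM in flox and 12.6 CPM in both KI libraries, which was not called, and the KI effect differed between these lineages by 1.96 (SE 0.19, adjusted p = 3.1e-06 in edgeR). E8.5 controls had 206, 229 and 250 CPM and KI embryos 161, 171 and 141 CPM (log2 fold change -0.53, SE 0.09, adjusted p = 0.00336 in edgeR). E9.5 controls had 303, 287 and 264 CPM and KI embryos 165, 159 and 137 CPM (log2 fold change -0.89, SE 0.09, adjusted p = 5.58e-06 in edgeR). Neither stage shows overlap. At neural day 16 the levels were small, 2.25 and 2.18 against 1.28 and 1.37 CPM, and the call (adjusted p = 0.0241 in edgeR) was lost when any 1 of the 4 libraries was left out, with adjusted p-values up to 0.15. At neural day 8, where Crabp2 was near its peak, flox cells had 495 and 498 CPM and KI cells 398 and 522 CPM, which overlap. In EBs at day 10 it had 22.5 CPM in flox and 4.65 and 3.29 CPM in KI cells, with no test.

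Crabp1 moved in opposite directions in the extraembryonic lineages. In endoderm it fell from 18.2 and 15.0 CPM in flox to 3.42 and 6.01 CPM in KI cells (log2 fold change -1.85, SE 0.30, adjusted p = 0.000325 in edgeR). In trophectoderm 1.40 and 1.88 CPM stood against 5.09 and 3.08 CPM in KI cells, a rise of 1.34 (SE 0.34, adjusted p = 0.00493 in edgeR) that lost its call without flox library 1 or KI clone 27 (adjusted p up to 0.0687). The difference of these effects was -3.19 (SE 0.45, adjusted p = 0.000124 in edgeR). E9.5 KI embryos had 753, 638 and 619 CPM against 557, 532 and 479 CPM in controls, and E8.5 levels overlapped. Neither was called (log2 fold change 0.36, adjusted p = 0.123 at E9.5 in edgeR), though Crabp1 was at E9.5 with only those libraries in the fit (0.00875) or with a replicate block (0.0131). In EBs Crabp1 had 15.4 CPM in flox and 1.55 and 2.40 CPM in KI cells at day 4, and 19.2 against 3.17 and 2.17 CPM at day 10.

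**Figure D4:**
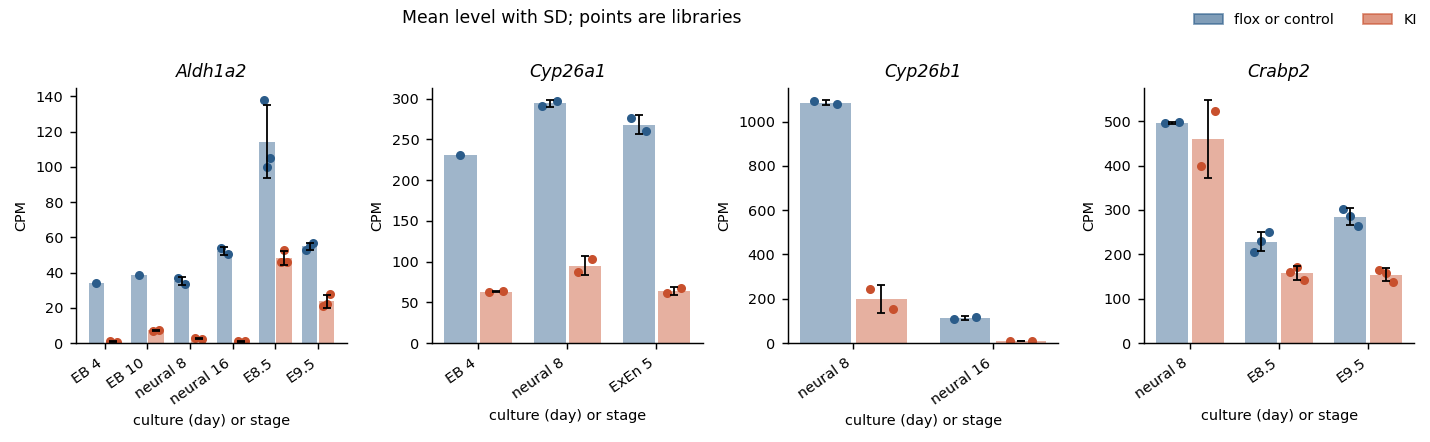
Mean level in CPM of Aldh1a2, Cyp26a1, Cyp26b1 and Crabp2 in selected groups, with bars from 0. SD is shown where a group has more than 1 library, and points are libraries. Aldh1a2 is drawn in EBs, neural cultures and embryos, and Cyp26a1 in EBs at day 4, neural day 8 and extraembryonic endoderm. Cyp26b1 is drawn in neural cultures and Crabp2 at neural day 8 and in embryos. Groups left out include EBs at day 10, where Cyp26a1 was higher in KI cells, and endoderm and embryos, where Cyp26b1 overlapped. Cyp26b1 reaches 1085 CPM in flox neural progenitors and 198 CPM in KI ones, and Aldh1a2 is highest in E8.5 control embryos at 114 CPM.

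The degrading enzymes fell with Aldh1a2 in neural cultures. Cyp26b1 had 1094 and 1077 CPM in flox progenitors and 242 and 154 CPM in KI progenitors, or 1085 ± 12.3 against 198 ± 61.7 CPM (SD, n = 2 each), a log2 fold change of -2.42 (SE 0.18, adjusted p = 2.82e-06 in edgeR). At day 16 the values were 108 and 120 CPM in flox and 10.4 and 8.53 CPM in KI neurons, a 12.0-fold lower mean (log2 fold change -3.39, SE 0.19, adjusted p = 1.76e-07 in edgeR). The KI effect differed between the days by -0.97 (SE 0.24, adjusted p = 0.0102 in edgeR), a call lost without flox library 2 of day 16 (adjusted p = 0.0774). The protocol gives 1 retinoic acid treatment for neural cultures, from day 4 to day 8, so day 16 was sampled after its removal, and the labels give no difference in it between flox and KI cells. In extraembryonic endoderm, which also received it, Cyp26b1 overlapped between genotypes and was not called: 40.9 and 38.3 CPM in flox and 43.7 and 32.2 CPM in KI cells, a log2 fold change of -0.09 (SE 0.14). Embryos overlapped at both stages, with 13.8 to 21.7 CPM in controls and 13.6 to 15.6 CPM in KI libraries at E8.5, and 28.7 to 42.0 against 31.1 to 36.7 CPM at E9.5.

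Cyp26a1 fell in neural cells and in endoderm. Flox progenitors had 291 and 297 CPM and KI progenitors 86.8 and 103 CPM, a 3.10-fold lower mean (log2 fold change -1.60, SE 0.12, adjusted p = 2.65e-06 in edgeR). Flox neurons had 2.89 and 3.05 CPM and KI neurons 1.15 and 0.718 CPM (log2 fold change -1.47, adjusted p = 7.27e-05 in edgeR). In extraembryonic endoderm the flox libraries had 276 and 260 CPM and the KI clones 60.9 and 67.7 CPM, a 4.17-fold lower mean. The groups lay well apart, but the SE of 0.41 on the log2 fold change of -2.09 gave an adjusted p of 0.02 in edgeR that passed the threshold in no fit without 1 of the 4 libraries (up to 0.0975). All 13 endoderm markers were called lower in the same KI cells, with sums of 2556 to 2742 against 5280 to 5369 CPM, and their part in the Cyp26a1 difference was not tested. In EBs the order differed by day, without a test: 231 CPM in flox and 62.6 and 63.3 CPM in KI cells at day 4, and 14.7 against 38.5 and 42.6 CPM at day 10. For a count on single days, without a test, genes with a mean of at least 1 CPM over the 3 libraries of a day were taken, and a gene was counted where both clones differed from the flox library at least 2-fold after 0.5 CPM was added to each level. At day 4, 6 of the 10 genes reached that mean: Aldh1a2, Cyp26a1 and Crabp1 were lower (4.07% of the 13387 genes that reached it were) and none was higher (1.38%). At day 10 all 10 reached it: Aldh1a2, Crabp1 and Crabp2 were lower (3.36% of 14114) and Cyp26a1 higher (3.49%). In ESCs 5 reached it, none lower (2.21% of 12482) or higher (4.87%). Some genes at low level were 2-fold apart as plain CPM yet not counted. At day 4 Cyp26b1 had 1.07 CPM in flox and 0.411 and 0.226 CPM in KI cells, and Rarb 1.07 against 0.365 and 0.498 CPM. At day 10 Cyp26b1 had 3.18 against 1.59 and 0.833 CPM, and in ESCs Aldh1a3 had 0.423 against 1.27 and 0.925 CPM. Trophectoderm (10.5 and 8.06 against 2.94 and 9.98 CPM) and both embryo stages overlapped between genotypes.

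In neural cultures the receptors had smaller log2 fold changes than the degrading enzymes, a contrast that was not tested. Only in trophectoderm were all receptors called in the same direction, where neither degrading enzyme was called. Rarb, whose promoter repeat is printed above, was higher in KI than flox progenitors, at 345 and 355 against 271 and 268 CPM (log2 fold change 0.41, SE 0.10, adjusted p = 0.00916 in edgeR). Cyp26a1, with the same kind of repeat, was lower in those libraries. At neural day 16 Rarb was lower, with 55.2 and 47.1 CPM in KI and 89.7 and 79.7 CPM in flox neurons (log2 fold change -0.53, SE 0.10, adjusted p = 0.00097 in edgeR), and the difference between the days was -0.94 (SE 0.14, adjusted p = 0.000317 in edgeR). It was also lower in KI trophectoderm, at 3.49 and 2.47 against 6.21 and 6.18 CPM (log2 fold change -1.02, adjusted p = 0.00227 in edgeR). Endoderm (35 and 39.5 against 53.4 and 37.0 CPM) and both embryo stages overlapped and were not called.

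Rara, the broadly expressed receptor, had 23.0 to 96.0 CPM in every culture but neural progenitors, where flox libraries had 242 and 234 CPM and KI libraries 328 and 301 CPM. That KI rise of 0.44 (SE 0.09, adjusted p = 0.00581 in edgeR), like the rise of Rarb, lost its call without either flox library, and then 3 of the 10 genes were called; without KI clone 27 the call of Rara was lost (adjusted p up to 0.0903) and without clone 48 that of Rarb (up to 0.0999). The ratio between the 2 most-read Rara transcripts in the tables, which share most sequence, was 1.119 to 1.13 in the progenitors and 0.903 to 1.021 in all other libraries. In trophectoderm Rara fell from 42.6 and 41.2 to 23.0 and 26.2 CPM (log2 fold change -0.74, SE 0.09, adjusted p = 9.23e-06 in edgeR). Endoderm had 57.8 to 63.3 CPM in all 4 libraries. E9.5 KI embryos had 53.2, 56.7 and 68.5 CPM against 46.4, 51.5 and 47.2 CPM, just short of a call at an adjusted p of 0.0502 in edgeR. It was called with only the E9.5 libraries in the fit (0.0351), with a replicate block (0.0218) and without KI library 1 (0.0299).

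Rarg, a receptor of early mesoderm and skin, had KI effects of opposite sign in the extraembryonic lineages, as Aldh1a2 and Crabp1 did. In extraembryonic endoderm it rose from 43.4 and 41.6 CPM in flox to 79.7 and 76.4 CPM in KI cells (log2 fold change 0.85, SE 0.07, adjusted p = 5.77e-07 in edgeR). In trophectoderm it fell from 120 and 115 to 66.4 and 72.4 CPM (log2 fold change -0.73, SE 0.07, adjusted p = 7.16e-07 in edgeR), and the difference between these effects was 1.58 (SE 0.10, adjusted p = 4.48e-08 in edgeR). At neural day 16 it fell from 24.1 and 23.6 to 8.53 and 9.00 CPM (log2 fold change -1.24, SE 0.11, adjusted p = 4.95e-06 in edgeR), whereas at day 8 the 4 libraries lay between 24.6 and 29.3 CPM. In embryos it was higher in KI libraries at both stages without overlap. At E8.5, 83.4, 91.2 and 92.4 CPM stood against 69.8, 77.0 and 73.2 CPM, with an adjusted p of 0.0655 in edgeR. With the embryo number of the titles as a block, since same-numbered E8.5 libraries deviated together, it was 0.0237, 3 of the 10 genes were called and the count over all genes went from 843 to 1321. At E9.5, 64.2, 67.5 and 67.6 CPM stood against 43.6, 43.2 and 55.0 CPM (log2 fold change 0.49, SE 0.09, adjusted p = 0.000381 in edgeR).

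Between E8.5 and E9.5, 6 of the 10 genes were called in controls (24.2% of all genes) and 7 in KI embryos (32.5%). Aldh1a3 rose by 3.19 in controls and 2.74 in KI embryos and Cyp26b1 by 0.92 and 1.1, and Aldh1a1 was called higher by 1.90 and 1.99. Aldh1a2 fell by 1.12 and 1.09, Cyp26a1 by 1.23 and 1.21, and Rarg by 0.70 and 0.49. Rarb rose by 0.60 in KI embryos. The Aldh1a1 calls, on 2 to 14 reads a library at E8.5, were lost without any 1 of the 6 control libraries and, in KI embryos, without any 1 of 4 of the 6 (adjusted p up to 0.142 in both). The Aldh1a3 call in controls was lost with only the compared libraries in the fit (0.0534), and its value was 4.57 without E8.5 library 3.

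Other genes of retinoid handling were taken as a list of 31, with enzymes that make retinaldehyde (Rdh10), reduce it (Dhrs3), store retinol (Lrat), carry it (Rbp4, Stra6), the related Cyp26c1 and Fabp5, the RXR partners and receptor cofactors. At neural day 8, 28 of them were tested, 3 were called higher and 5 lower, with 19.5% of all genes called and a median log2 fold change of -0.05 against 0 over all genes. Lrat fell by 2.68, Dhrs3 by 1.81 and Rxrg by 1.54, and Dhrs3, a retinoic acid-induced reductase, had 39.2 CPM in KI and 141 CPM in flox cells. In neurons 3 were higher and 13 lower of 28 (46.9% of all genes called), with Dhrs3 at 13.0 against 98.4 CPM. Stra6, the cell surface retinol transporter, fell in trophectoderm by 2.38, in endoderm by 1.95 (7.27 against 27.4 CPM), at E8.5 by 0.77 and at E9.5 by 0.56. In trophectoderm 5 were called higher and 8 lower of 25, near the 50.9% of all genes called, with Rdh10 at 16.5 against 76.8 CPM. In endoderm 3 were higher and 9 lower of 25 (35.5%). At E8.5, 1 was higher and 1 lower of 27 (5.46%). At E9.5, 8 were higher and 4 lower of 27 (29.5%), among them Cyp26c1, the hindbrain CYP26 enzyme, at 37.4 CPM in KI and 16.8 CPM in control embryos.

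Retinoic acid targets were taken as a list of 27 that includes anterior Hox genes, Cdx1, Meis1, Stra8, Tgm2 and Nr2f1. From EB day 4 to neural day 8, 24 of 27 were called higher in KI cells (median log2 fold change 5.61, against 0.08 over all genes) and 20 in flox cells (4.33 against 0.10), where 37.3% and 33.2% of all genes were called higher. From trophectoderm to endoderm 22 of 27 were called higher in KI and 21 in flox cells (medians 2.75 and 2.58, against -0.03 and -0.01 over all genes), with 63.1% and 64.7% of all genes called in either direction. From neural day 8 to day 16, 22 fell in KI and 20 in flox cells, with 4 higher in each, where 79.9% and 77.1% of all genes were called. Between KI and flox progenitors 7 were higher and 6 lower (19.5% of all genes called), with a median of 0.02, Ccnd1 higher by 1.31 and Hoxb1 by 0.67, and Stra8 at 7.13 against 18.8 CPM. In neurons 4 were higher and 10 lower of 27 (46.9%), with Tgm2, the tissue transglutaminase, at 10.2 against 145 CPM. In endoderm 9 were higher and 7 lower of 27 (35.5%), Stra8 at 16.3 against 2.48 CPM being higher there. In trophectoderm 6 were higher and 6 lower of 27 (50.9%). At E8.5 none was higher and 2, Nr2f1 and Nr2f2, were lower of 26 (5.46%). At E9.5, 5 were higher and 3 lower of 26 (29.5%).

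Genes with the most similar pattern were found by Pearson's r between log2 levels over the 18 group means, a description over groups that share libraries and depth. Cyp26b1 was closest to the Hox genes Hoxa3 and Hoxa4 (r = 0.936 each), and Rarb to Tshz1 (0.965), all 3 of which are on the list of retinoic acid targets. The next closest were not on it: Ntng2 (0.925) for Cyp26b1, and Cfl2 (0.962) and Csnk1e (0.953) for Rarb. Aldh1a3 was closest to Dlx1as (0.965) and Dlx1 (0.953), Crabp2 to Igdcc3 (0.955), Crabp1 to C130026L21Rik (0.938), Rarg to Foxo4 (0.927), Aldh1a1 to Tlcd5 (0.899), Cyp26a1 to Cramp1l (0.883), Aldh1a2 to Adamtsl2 (0.878) and Rara to Abhd10 (0.858). Among the 10 genes themselves the highest r was 0.86, between Cyp26b1 and Rarb, and the lowest was -0.43, between Rarb and Rarg.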

How the data were processed

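The authors deposited 1 table a library, with counts and RPKM for 29082 RefSeq transcripts. The submitters' processing notes name STAR, Bowtie2 and build mm9; the counter, annotation version and use of strand are not given in the sources used here. The deposited RPKM served only to give relative transcript lengths. The labels' protocols describe poly(A) selection for all, while the labels call ESC, EB and neural samples polyA RNA and the others total RNA; whether library making differed is not given in the sources used here. A symbol matched 28436 accessions, 646 had none, and each gene took the transcript with most reads. Counts were scaled by TMM and tested with edgeR 4.0.16 (quasi-likelihood, robust, genes filtered at a minimum of 10 reads, Benjamini-Hochberg adjustment) in 22 comparisons. Libraries of related groups shared a fit. On simulated data with 200 genes changed in the neural day 8 comparison (16171 genes), 90% of 2-fold and 100% of 4-fold changes were recovered. For flox neural day 8 against the 1 EB library of day 10 (16499 genes) it was 63% and 100%. The simulation gave every gene the same spread and changed only genes with many reads. These rates therefore do not cover genes with few reads or groups whose libraries lie further apart. DESeq2 1.42.0 was an alternative. The 63 other samples are not analysed here.

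Same-numbered E8.5 embryo libraries deviated together (r of 0.46, 0.56 and 0.27 over genes), as did libraries of the same KI clone (0.26 to 0.6), so a replicate block was tried. The labels do not say what the embryo number marks. The rule names all 10 genes, and the text gives, in each comparison, those that bear on its result. Of 2 further lists, of 31 and 27 genes, the text names only genes among up to 5 per direction with the largest called change, and 1 result is not reported here. The members and lists were chosen with earlier results of these data known.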

Additional observations from a re-analysis of the deposited data

Results flagged for a closer look

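For 7 of the 10 genes the KI effect differed between neural day 16 and neural day 8 by the interaction term of edgeR's quasi-likelihood fit (33.2% of all genes did). The difference on the log2 scale was -1.99 for Aldh1a1 (SE 0.48, adjusted p = 0.00772), -1.71 for Aldh1a2, -0.97 for Cyp26b1, -0.57 for Rara (SE 0.14, adjusted p = 0.0072), -0.94 for Rarb, -1.23 for Rarg (SE 0.16, adjusted p = 0.000124) and 0.45 for Crabp1 (SE 0.15, adjusted p = 0.0372). Besides that of Cyp26b1, the call of Crabp1 was lost in several fits without 1 library (adjusted p up to 0.129) and the call of Aldh1a1 without KI clone 48 of day 16 (0.0569).

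Between extraembryonic endoderm and trophectoderm the KI effect also differed for 7 of the 10 (35.3% of all genes). The difference was 3.42 for Aldh1a1 (SE 0.81, adjusted p = 0.00454), which rests on 0 and 4 reads in KI trophectoderm and was 2.49 without KI clone 27 and 7.23 without KI clone 48 of trophectoderm. It was 2.70 for Aldh1a2, 0.76 for Rara (SE 0.12, adjusted p = 0.000287), 1.27 for Rarb (SE 0.28, adjusted p = 0.00358), 1.58 for Rarg, -3.19 for Crabp1 and 1.96 for Crabp2. No group of 4 or more libraries exists, so no single library was tested for standing apart.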

How the results depend on the processing

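Over 140 calls of the 10 genes in 22 comparisons no alternative reversed a direction. DESeq2 kept 135 and lost 5, its size factors in edgeR kept 139, no filter on low counts kept 139, and sums over transcripts kept 137. A replicate block kept 86 and lost 1, Aldh1a3 in flox endoderm against trophectoderm (adjusted p = 0.0779); it brought the count of the 10 called from 3 to 5 at E9.5 and changed no other count by over 1.5 times there or elsewhere, apart from the E8.5 count over all genes given above. At E9.5 same-numbered libraries did not all deviate together (r from -0.04 to 0.23), and flox libraries of endoderm and trophectoderm share only a number (r = -0.01). Neural flox libraries, 2 pairs (r = 0.2), gained Aldh1a1 from day 8 to day 16 under the block (-0.66, adjusted p = 0.0241). Asking also for a 2-fold change left 3 of the genes at neural day 8 (Aldh1a2, Cyp26a1 and Cyp26b1), 3 in the neural interaction and 1 each at E8.5 and E9.5 (Aldh1a2). With only the E9.5 libraries in the fit 6 were called. Averaged over the EB course, DESeq2 called 2, and 778 genes in all against 121.

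Leaving out 1 library at a time gave 3 to 4 calls among the 10 at neural day 8, where calls over all genes went from 3202 to 1950 without flox library 1 and 1896 without flox library 2. It gave 3 to 6 at E9.5 (6 without KI library 1, which added Cyp26a1, Rara and Rarb), 0 to 1 in the embryo interaction (Aldh1a3 at -1.84, adjusted p = 0.0231, without control library 3 of E8.5) and 0 to 2 over the EB course, where the flox library left out leaves its day with KI cells alone. There Cyp26a1 was called higher (1.41, adjusted p = 0.0195) without the flox library of day 4 and lower (-1.74, 0.0114) without that of day 10, and Aldh1a2, at -3.12 with all libraries, was at -1.92 without the flox library of day 4 and -3.81 without that of ESCs. In all, 566 such refits kept a call and 52 lost it. With 1 to 3 libraries a group, and with 0 to 14 reads of Aldh1a1 in ESCs, EBs at day 4, KI trophectoderm and E8.5 embryos, small differences at low level cannot be resolved. TMM factors ran from 0.832 to 1.08, and under either scaling 6 of the 10 genes had their highest group mean in neural progenitors or endoderm. The share of all genes that did so is not given.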
